A study of Mus musculus with 24 samples.

Results

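Fzd1, Ctnnb1 and Csnk1a1 encode a receptor, the central effector and a regulatory kinase of the Wnt pathway, and their transcript levels were followed in HBC-3 cells at day 0 and through 7 days on Matrigel. All features annotated with 1 of these 3 symbols were taken. They were 8 of the 24157 features of the array, with 2 for Fzd1, 1 for Ctnnb1 and 5 for Csnk1a1, and each gene had a value on all 24 arrays. The 3 genes were chosen by their differences at days 1 and 7 against day 0 on these same arrays. Every difference of theirs against day 0 is therefore given as a description, with no test, and tests were made only among days 2 to 6.

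HBC-3 is a hepatoblast line from embryonic mouse liver, and Matrigel is a gel of basement membrane proteins. Each array of days 1 to 7 carried RNA of cells after that number of days of differentiation on the gel, and each day 0 array carried RNA of undifferentiated control cells. All cells had been grown on a feeder layer of fibroblasts, which was removed by trypsin and replating on plastic. There were 3 arrays a day, lettered A, B and C. Every array also carried undifferentiated HBC-3 cells in the Cy3 channel, so that at day 0 both channels held undifferentiated cells. All samples come from 1 cell line, and the labels do not say whether each array had a culture of its own, so p-values reflect only array-to-array spread, which may be technical.

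Wnt ligands bind Frizzled receptors such as Fzd1 together with a co-receptor of the Lrp family. Without a ligand, a destruction complex holding Apc, Axin, casein kinase 1 alpha (the product of Csnk1a1) and Gsk3 phosphorylates beta-catenin (the product of Ctnnb1). Casein kinase 1 alpha adds the first, priming phosphate, and the marked protein is broken down after a ubiquitin ligase with Skp1 and Cul1 has tagged it. With a ligand, beta-catenin accumulates, enters the nucleus and joins Tcf and Lef factors. Beta-catenin also links cadherins to the actin cytoskeleton at adherens junctions. In liver the pathway is known for hepatoblast growth, for bile duct fate and for genes of the hepatocytes around the central vein.

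Values are log ratios read as log2 of the Matrigel or control sample over undifferentiated reference cells. That direction and base are likely from the dyes and the range of values, but are not stated with the deposited values. The values per array numbered 12328 to 22149, and the SD of the log ratios was between 0.332 and 1.064. The day 0 arrays differed among themselves. Arrays A and C of day 0 correlated at -0.343 over features, and day 0 array A and day 3 array B at -0.504. For the 3 genes and for the counts of each gene list, comparisons with day 0 are for that reason also given with day 0 turned, which means that the signs of its arrays were reversed. The C arrays of days 4 to 7 had the widest values (SD 0.998 to 1.064) and correlated with each other at 0.808 to 0.967, whereas their correlation with arrays A and B of the matching day was 0.468 to 0.624. The number of arrays, 3 a day, limits the precision. In RNA from a whole culture, fewer cells of a type and less RNA per cell cannot be told apart. A ratio to the same cell line also cannot show whether a hepatoblast marker is present. Of the hepatoblast and hepatocyte markers, 4 of 14 had enough values to be tested, Afp, Apob, H19 and Igf2. The mean log ratio of those with a value was between -0.39 and -0.07 on day 0 arrays. It was between -0.02 and 1.93 at days 1 to 3 and between -0.19 and 3.55 at days 4 to 7. The highest mean was on day 4 array B, where Apob had no value and H19 stood at 5.78. At day 7 minus day 0 Apob differed by -0.38 ± 0.18 (standard error), and Afp, H19 and Igf2 by 1.93, 3.34 and 1.80.

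Fzd1, the receptor, stood far above the reference cells on every array of days 1 to 7 and below them on all 3 day 0 arrays. The gene lies at chr5:4753839-4758216 (GRCm38.p6, from a gene name table). Its log ratios at day 0 were -1.19, -0.92 and -0.10 on arrays A, B and C. At day 1 they were 2.44, 2.57 and 2.23, at day 2 they were 2.30, 2.77 and 2.35, and at day 3 they were 2.85, 2.95 and 2.68. These 9 arrays spanned less than 1 log2 unit, and the group did not overlap with day 0. The gene was chosen by such differences, and the share of all units without overlap was not counted. At day 4 the values were 1.75, 2.90 and 4.14, at day 5 they were 1.38, 2.71 and 4.34, at day 6 they were 2.03, 1.74 and 3.06, and at day 7 they were 1.67, 2.15 and 4.09. All of these again lay above day 0, with array C the highest of each day.

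The day means of Fzd1 were -0.74 ± 0.56 at day 0, 2.41 ± 0.17 at day 1, 2.47 ± 0.26 at day 2 and 2.83 ± 0.14 at day 3 (SD, n = 3 each). They were 2.93 ± 1.20 at day 4, 2.81 ± 1.48 at day 5, 2.28 ± 0.69 at day 6 and 2.64 ± 1.28 at day 7. The level of day 1 was thus close to that of later days, while the spread between arrays was wider from day 4 on. Over days 4 to 7 the C arrays averaged 3.91 ± 0.58 (SD, n = 4; 3.06 to 4.34) and the A and B arrays 2.04 ± 0.53 (n = 8; 1.38 to 2.90), with no overlap. Over days 1 to 3 the C arrays averaged 2.42 ± 0.23 (n = 3) and the A and B arrays 2.65 ± 0.25 (n = 6), with overlap. The high Fzd1 values thus sat on the arrays with the widest values, and the part of that width in them was not tested.

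Against day 0, the fitted difference of Fzd1 was 3.15 at day 1, 3.21 at day 2, 3.56 at day 3, 3.67 at day 4, 3.55 at day 5, 3.01 at day 6 and 3.37 at day 7, each with a standard error of 0.65. With day 0 turned, the differences were 1.68 at day 1 and 1.90 at day 7. On its own array Fzd1 ranked between the percentiles 97.1 and 99.9 of all units at days 1 to 7, with a median of 99.6 over 21 arrays. At day 0 its percentiles were 1.4, 2.2 and 36.0 on arrays A, B and C. Part of the difference thus lay in the low values of day 0 arrays A and B.

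Both Fzd1 features gave this course. Features 3096 and 6418 correlated at r = 0.990 over the 24 arrays, which describes these arrays only, as features of 1 array share its RNA. The difference at day 7 minus day 0 was 3.17 ± 0.63 for feature 3096 and 3.58 ± 0.67 for feature 6418 (standard error). Day 0 array C was the one on which they stood on different sides of 0, at -0.27 and 0.07.

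Ctnnb1, the gene of beta-catenin, was higher than the reference cells on every array of days 1 to 7, by less than Fzd1. It lies at chr9:120933400-120960507 (GRCm38.p6) and was measured by a single feature, 20504. Its log ratios at day 0 were -0.33, -0.47 and -0.58 on arrays A, B and C. At day 1 they were 0.60, 0.36 and 0.64, at day 2 they were 0.17, 0.36 and 0.52, and at day 3 they were 1.00, 1.21 and 1.05. The lowest value of day 3 lay above the highest of days 1 and 2. At day 4 the values were 0.33, 0.68 and 1.74, at day 5 they were 0.79, 0.96 and 1.69, at day 6 they were 1.25, 1.16 and 1.11, and at day 7 they were 1.59, 0.73 and 1.98. The arrays of day 6 lay close together, while those of days 4, 5 and 7 were spread as those of Fzd1 were.

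The day means of Ctnnb1 were -0.46 ± 0.13 at day 0, 0.53 ± 0.15 at day 1, 0.35 ± 0.18 at day 2, 1.09 ± 0.11 at day 3, 0.92 ± 0.74 at day 4, 1.15 ± 0.48 at day 5, 1.17 ± 0.07 at day 6 and 1.43 ± 0.64 at day 7 (SD, n = 3 each). Day 2 was the lowest of the Matrigel days and day 7 the highest. Neighbours in the order of the means from day 3 to day 7 did not differ beyond their spread. Against day 0 the differences were 0.99 at day 1, 0.81 at day 2, 1.55 at day 3, 1.38 at day 4, 1.61 at day 5, 1.63 at day 6 and 1.89 at day 7, each with a standard error of 0.32. With day 0 turned they were 0.07 at day 1 and -0.11 at day 2, so that the early difference depends on the sign of those arrays, and 0.97 at day 7. Ctnnb1 ranked between the percentiles 64.7 and 97.7 on the arrays of days 1 to 7 (median 89.6). On the C arrays of days 4 to 7 it averaged 1.63 ± 0.37 (SD, n = 4), and on the A and B arrays 0.94 ± 0.39 (n = 8), with overlap.

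Csnk1a1, the gene of casein kinase 1 alpha, showed the smallest differences of the 3 genes against day 0, except at day 2. It lies at chr18:61554236-61590320 (GRCm38.p6), and its value here is the mean over those of its 5 features that had a value. On the C arrays of days 6 and 7 feature 22044 had none, so the mean there leaves it out. Its log ratios at day 0 were -0.53, -0.60 and -0.09 on arrays A, B and C. At day 1 they were 0.27, 0.39 and 0.34, at day 2 they were 0.39, 0.58 and 0.46, and at day 3 they were 0.28, 0.59 and 0.33. All 9 arrays lay above 0 and above day 0, again in a gene chosen by such differences. At day 4 the values were -0.11, 0.30 and 0.31, at day 5 they were -0.07, 0.25 and 0.14, at day 6 they were 0.13, -0.24 and 0.47, and at day 7 they were 0.18, 0.31 and 0.67. On 3 of these 12 arrays the gene stood below 0, and at days 4 and 6 the lowest array lay below the highest of day 0.

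The day means of Csnk1a1 were -0.41 ± 0.28 at day 0, 0.33 ± 0.06 at day 1, 0.48 ± 0.09 at day 2, 0.40 ± 0.17 at day 3, 0.17 ± 0.24 at day 4, 0.11 ± 0.16 at day 5, 0.12 ± 0.36 at day 6 and 0.39 ± 0.25 at day 7 (SD, n = 3 each). The order of the Matrigel days put day 2 highest and day 5 lowest. Against day 0 the differences were 0.74, 0.88, 0.80, 0.57, 0.51, 0.52 and 0.79 at days 1 to 7 in turn, each with a standard error of 0.21. With day 0 turned they were -0.07, 0.07, -0.01, -0.24, -0.30, -0.29 and -0.02 at days 1 to 7, so that none of them then stood clearly above 0 and those of days 4 to 6 were negative. Csnk1a1 ranked between the percentiles 70.8 and 82.7 at days 1 to 3, and between 37.6 and 78.3 at days 4 to 7.

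The background of calls against day 0 is needed to read these differences. Of the 10639 units tested (genes, or features without a gene name), 4.99% were called higher and 5.92% lower at day 1, and at day 7 the shares were 14.6% and 13% (limma, adjusted p under 0.05). The shares with day 0 turned were 2.02% and 2.82% at day 1 and 5.82% and 5.74% at day 7. The units called numbered 1161 at day 1 and 330 without day 0 array B, and 2940 at day 7 and 1616 without that array. The 3 genes were picked from this contrast, so nothing is read from their place in it.

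**Figure D1:**
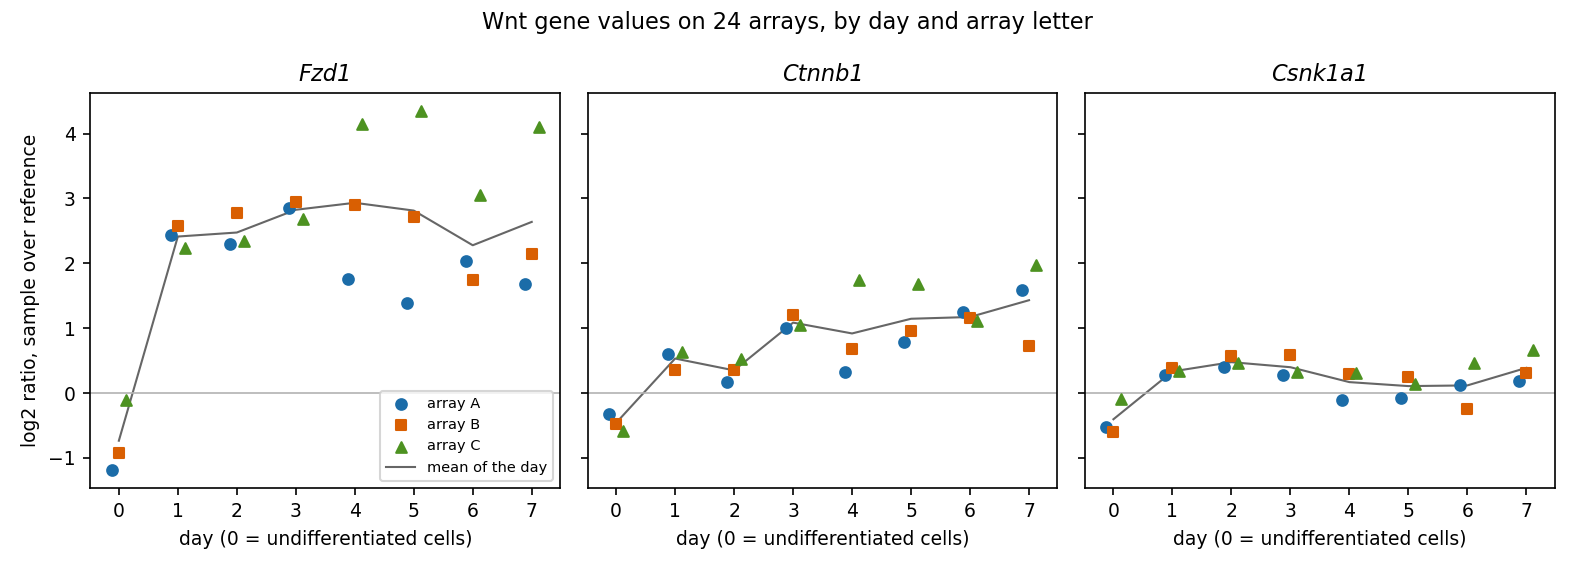
Log2 ratio to the reference cells (vertical axis) of Fzd1, Ctnnb1 and Csnk1a1 by day (horizontal axis), with a point for each array and a line through the day means. Fzd1 is near 2.41 on average by day 1 and its C arrays reach 4.34 at day 5, while Csnk1a1 stays between -0.24 and 0.67 on all Matrigel arrays.

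The tests asked whether the genes still moved once the cells were on the gel. Days 5 and 6 were set against days 2 and 3, 4 days whose arrays had no part in the choice of the genes. On days 5 and 6 minus days 2 and 3, Ctnnb1 differed by 0.44 ± 0.23 (95% interval -0.03 to 0.91; limma, adjusted p = 0.338). Csnk1a1 differed by -0.33 ± 0.15 (-0.64 to -0.01; limma, adjusted p = 0.293, unadjusted p = 0.0416). For Fzd1 the difference was -0.10 ± 0.46 (-1.06 to 0.85; limma, adjusted p = 0.925). None of the 3 genes passed, against 0.414% of all units called (0.207% higher and 0.207% lower), which was 44 of 10639, while 1701 had an unadjusted p under 0.05. The Fzd1 interval leaves room for a change of about 1 log2 unit either way, so the test does not show that its level was steady. With the late C arrays left out, the difference of Fzd1 was -0.68 ± 0.27 (limma, adjusted p = 0.188). Over 22 alternatives the adjusted p of limma was between 0.136 and 0.983 for Fzd1, 0.221 and 0.675 for Ctnnb1, and 0.139 and 0.544 for Csnk1a1.

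No step from one day to the next passed for any of the 3 genes. The largest step for Ctnnb1 was day 3 minus day 2, at 0.74 ± 0.32 (95% interval 0.08 to 1.40; limma, unadjusted p = 0.0308, adjusted p = 1). The day 3 arrays, at 1.00 to 1.21, all lay above the day 2 arrays, at 0.17 to 0.52. For Fzd1 the largest was day 6 minus day 5, at -0.54 ± 0.65, and for Csnk1a1 day 4 minus day 3, at -0.23 ± 0.21. In these steps limma called 0% of all units for day 3 minus day 2, 0% for day 4 minus day 3, 0% for day 5 minus day 4 and 0% for day 6 minus day 5. The units with an unadjusted p under 0.05 numbered 79, 204, 44 and 448 in the same order of steps.

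The 5 features of Csnk1a1 did not follow 1 course, and this bears on every value of the gene. At days 1 to 3 feature 1182 averaged 0.69 ± 0.12 (SD, n = 9), feature 25069 0.53 ± 0.24, feature 26971 0.33 ± 0.25, feature 24374 0.32 ± 0.31 and feature 22044 0.15 ± 0.22. At days 4 to 7 feature 1182 averaged 0.93 ± 0.54 and feature 25069 0.72 ± 0.38, both above 0 on all 12 arrays. Feature 22044 averaged -0.87 ± 0.64 over the 10 arrays with a value and was above 0 on 1 of them, and feature 26971 averaged -0.15 ± 0.48 and was above 0 on 4 of 12. Feature 24374 lay between them, at 0.11 ± 0.53 and above 0 on 7 of 12 arrays.

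Array by array, feature 22044 stood at -0.90, -1.25 and -0.41 on the day 0 arrays. It stood at 0.24, -0.21 and 0.32 at day 1, at 0.40, 0.02 and 0.44 at day 2 and at 0.13, -0.11 and 0.09 at day 3. At day 4 it was at -1.07, -0.14 and -1.12, at day 5 at -0.99, -0.20 and -1.89, at day 6 at -0.98 and -1.45, and at day 7 at -1.06 and 0.20, with no value on the C arrays of days 6 and 7. It was thus near the reference cells for 3 days and then, except on most B arrays, back near its day 0 level. Feature 1182 on the same arrays was at 0.66, 0.72 and 1.53 at day 5, at 1.10, 0.03 and 1.10 at day 6 and at 1.16, 0.42 and 1.69 at day 7. On the C arrays of days 4 and 5, where feature 22044 was at -1.12 and -1.89, feature 1182 was at 1.67 and 1.53.

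Features 1182 and 25069 moved together, features 22044 and 26971 did so less closely, and feature 24374 was close to none of the others. Over the 24 arrays features 1182 and 25069 correlated at r = 0.919, and features 22044 and 26971 at 0.767 over 22 arrays. Features 1182 and 26971 correlated at -0.325 over the 24 arrays and at -0.579 over the 21 arrays of days 1 to 7. Feature 24374 correlated with the other 4 at 0.072 to 0.336. At day 7 minus day 0 the differences were 1.41 ± 0.35 for feature 1182, 1.37 ± 0.28 for feature 25069, 0.47 ± 0.39 for feature 24374, 0.42 ± 0.43 for feature 22044 and -0.08 ± 0.34 for feature 26971 (standard error, no test). These were, with day 0 turned, 0.77, 0.53, -0.22, -1.29 and -0.25 in the same order. The difference of 0.79 for the gene thus came from features with quite different values. Its value on day 7 array C left out feature 22044, which had low values on most late arrays.

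Fitted as single features, none of the 8 passed on days 5 and 6 minus days 2 and 3, against 0.305% of all 13112 features (40 called by limma). Feature 22044 came nearest, at -1.28 ± 0.29 (95% interval -1.89 to -0.67; limma, adjusted p = 0.0583), ahead of feature 26971 at -0.56 ± 0.24 (limma, adjusted p = 0.266). Features 1182 and 25069 stood at 0.13 ± 0.25 and 0.06 ± 0.20. The difference between features was then tested within arrays, for all 10 pairs of Csnk1a1 features, with an exact permutation test over the arrays. The test was 2-sided, adjusted over the 10 pairs and chosen after the values were seen. It treats the arrays as independent, whereas the C arrays of days 4 to 7 correlated with each other at 0.808 to 0.967. Its p-values may therefore be too small. Feature 1182 lay above feature 22044 by 1.91 ± 0.94 on the arrays of days 5 and 6 (SD, n = 5) and by 0.56 ± 0.32 on those of days 2 and 3 (n = 6), a change of 1.35 (exact permutation p = 0.00866, adjusted p = 0.0433). The gap of feature 22044 to feature 25069 changed by -1.32 (exact permutation p = 0.00866, adjusted p = 0.0433). The other 8 pairs did not pass, with adjusted p between 0.0505 and 0.608. The smallest exact permutation p that 6 against 6 arrays allow is 0.00216, and 5 against 6 arrays allow only a larger one. Which of the features represents the Csnk1a1 transcript was not tested.

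**Figure D2:**
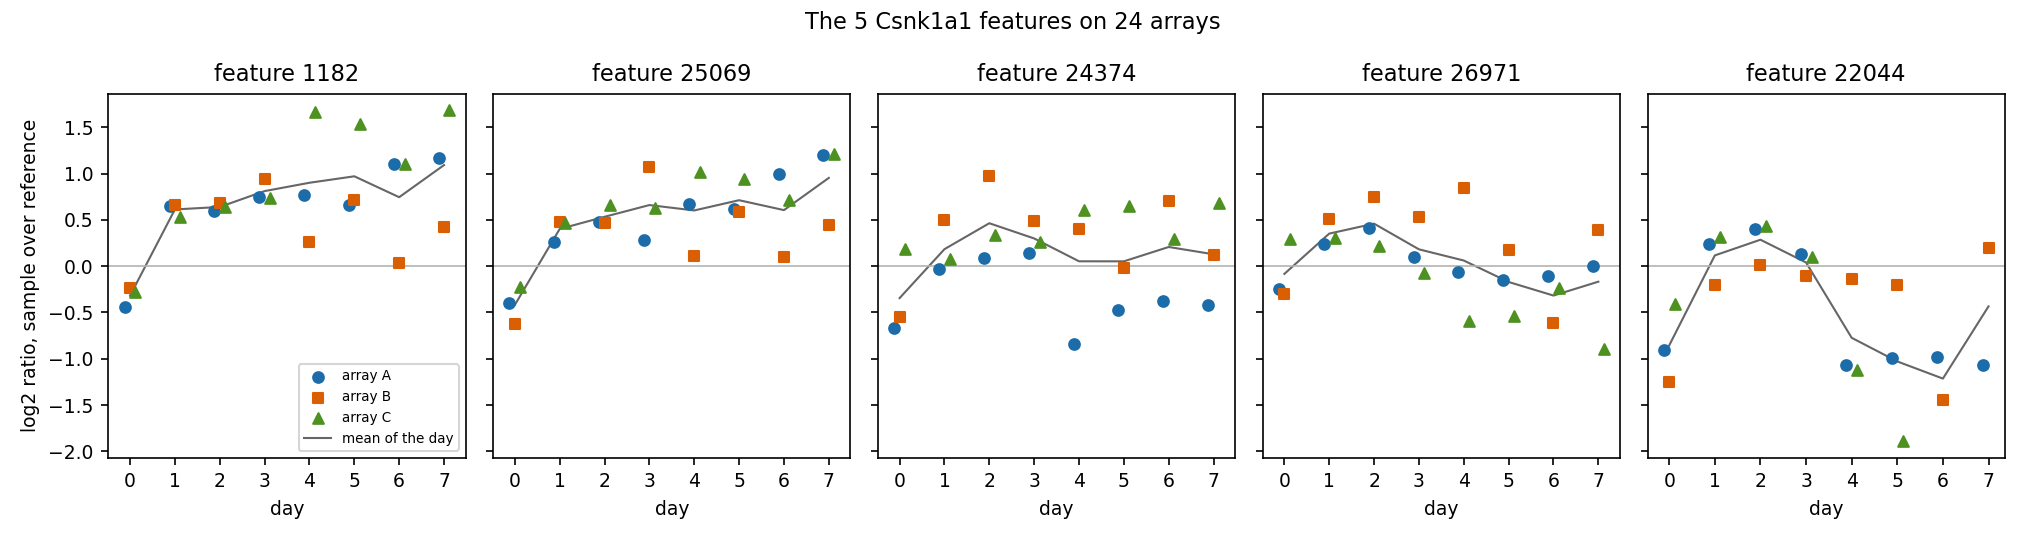
Log2 ratio to the reference cells (vertical axis) of each of the 5 Csnk1a1 features by day (horizontal axis), with a point for each array and a line through the day means. Features 1182 and 25069 remain above 0 on all arrays of days 4 to 7, while feature 22044 is above 0 on 1 of 10.

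**Figure D3:**
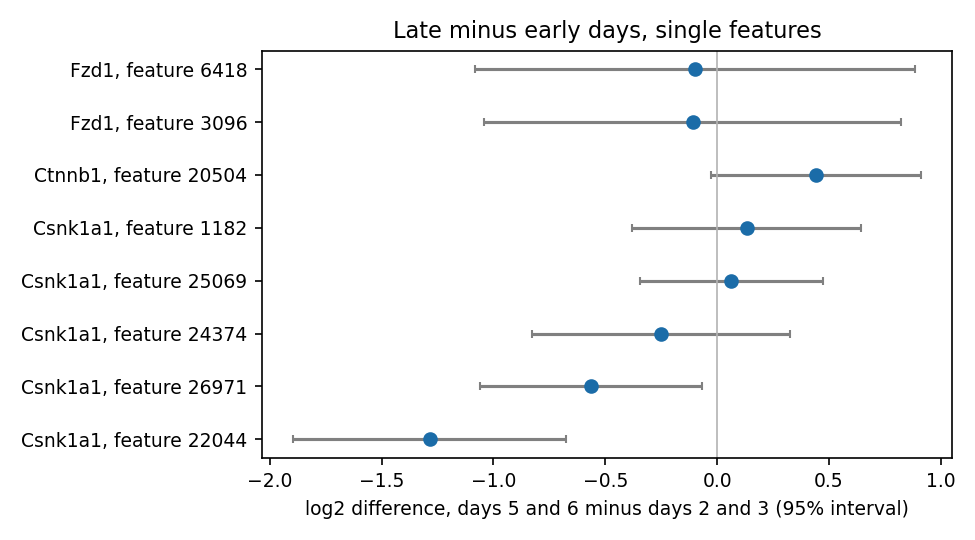
Difference between the means of days 5 and 6 and of days 2 and 3 (horizontal axis, log2) for the 8 single features, with 95% intervals from limma as bars. The Fzd1 features lie at -0.11 and -0.10 with wide intervals, Ctnnb1 lies at 0.44, and the Csnk1a1 features are spread between 0.13 and -1.28.

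How closely the 3 genes followed each other depended on which arrays were included. Fzd1 and Ctnnb1 correlated at r = 0.793 over the 24 arrays and at 0.552 over the 21 arrays of days 1 to 7. Over the 17 arrays of days 1 to 7 without the late C arrays the value was -0.141. Fzd1 and Csnk1a1 correlated at 0.808, 0.523 and 0.765 over the same sets, and Ctnnb1 and Csnk1a1 at 0.513, 0.036 and -0.239. These values are descriptions, since arrays of a day share their condition and all share the reference.

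The promoters of Fzd1 and Ctnnb1, the pair with the larger differences, are shown because Tcf and Lef factors bind DNA at known motifs. Each sequence is the 250 bases before the annotated start (RefSeq, GRCm38.p6), in lower case because no base is marked. The first is chr5:4758217-4758466 on the minus strand, and the second, of the first of the annotated Ctnnb1 starts, is chr9:120933150-120933399 on the plus strand.
Fzd1 promoter: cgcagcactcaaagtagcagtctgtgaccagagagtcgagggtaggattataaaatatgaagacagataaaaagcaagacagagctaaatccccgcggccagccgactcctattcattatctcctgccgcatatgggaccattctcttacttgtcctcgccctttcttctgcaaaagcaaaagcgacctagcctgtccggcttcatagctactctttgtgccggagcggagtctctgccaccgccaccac
Ctnnb1 promoter: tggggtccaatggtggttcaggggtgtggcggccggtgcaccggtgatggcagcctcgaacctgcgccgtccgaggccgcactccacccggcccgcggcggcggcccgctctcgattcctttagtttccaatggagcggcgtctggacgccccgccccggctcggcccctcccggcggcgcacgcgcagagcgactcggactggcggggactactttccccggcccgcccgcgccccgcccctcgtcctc
The Tcf and Lef motif was searched on both strands as CTTTG followed by 2 bases that are each A or T, which gives 4 spellings. Neither window held it, which says only that these letters are not there, and 14.8% of 32851 promoters of the same length did. The base composition of the windows differed, with a GC content of 51.2% for Fzd1 and 74.8% for Ctnnb1, against a median of 52.4%. The data hold no measurement of binding at these sites.

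By pattern over the 24 arrays, the genes most like Fzd1 among 5590 genes were Cryz (r = 0.955, 23 arrays), Cpt1a (0.949), Osmr (0.947), Sipa1l2 (0.941) and Chst11 (0.940). Cpt1a encodes the enzyme that commits fatty acids to mitochondrial oxidation, and Osmr the oncostatin M receptor. The median r with Fzd1 was 0.05, and 27 genes were above 0.9. Most like Ctnnb1 were Vps4b (r = 0.942) and Vps35l (0.935), both of endosomal sorting, the small GTPase gene Rhoq (0.930), Pcyt1a (0.923), an enzyme of phosphatidylcholine synthesis, and Slc35f5 (0.909, 21 arrays), with 9 genes above 0.9. Csnk1a1 had no gene above 0.9 (0 of 5590). Its nearest were Skap2 (r = 0.867), Papss1 (0.861), Ccny (0.853), Zfand1 (0.851, 23 arrays) and Cd276 (0.847). These values include the step from day 0, by which the 3 genes were chosen. Over days 1 to 7 alone, r was 0.807 to 0.914 for the genes listed with Fzd1. It was 0.830 to 0.895 for those with Ctnnb1 and 0.614 to 0.714 for those with Csnk1a1.

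The rest of the pathway gives the setting. Of 191 other Wnt pathway genes listed, 104 had a feature and 70 had enough values to be tested. At day 1, 2 of these 70 rose and 2 fell (limma, adjusted p under 0.05), against 4.99% and 5.92% of all units, with a median difference of 0.07 for the list and 0.04 for all units. At day 7, 11 rose and 3 fell, against 14.6% and 13%, with medians of 0.08 and -0.01. The count at day 7 is close to the background for rises and below it for falls. On days 5 and 6 minus days 2 and 3, 0 of 70 passed by limma, and 7 had an unadjusted p under 0.05. With day 0 turned, 2 of the 4 genes of day 1 still passed (Daam2 and Tcf4), and 3 of the 14 of day 7 (Birc5, Fzd8 and Siah1a).

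Among ligands only Rspo3, whose protein strengthens Wnt signals, was tested, at -0.54 ± 0.46 at day 7, without passing. Of 5 receptors and co-receptors other than Fzd1, 1 rose and 1 fell at day 7, against 14.6% and 13% of all units. Fzd3 stood at 0.44 and 1.29 on arrays A and C of day 7, against -0.16 and 0.01 on day 0 arrays A and C, and rose by 0.94 ± 0.32 (limma, adjusted p = 0.0396). Fzd8 stood at -0.98, -0.59 and -1.004 at day 7, against -0.10, 0.05 and -0.33 at day 0, and fell by 0.73 ± 0.22 (limma, adjusted p = 0.0178). Both pairs of groups were without overlap, for Fzd3 on arrays A and C alone. The share of all units without overlap was not counted. Fzd7 (0.59 ± 0.37), the co-receptor gene Lrp6 (0.62 ± 0.59) and Ryk (0.02 ± 0.36) did not pass. The Fzd1 difference of 3.37 was larger than that of each of these, as a description, since Fzd1 was chosen for it.

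Of 3 inhibitors, Nkd2, which binds Dishevelled, rose by 1.32 ± 0.44 at day 7 (limma, adjusted p = 0.033), with values on 2 of the 3 day 0 arrays. Of all units, 14.6% were called higher at that day. None of 9 signal transducers and casein kinases passed at day 1 or day 7 (0 by limma). The relatives of Csnk1a1 were among them. Csnk1d stood at 0.82 ± 0.34 at day 7 (limma, adjusted p = 0.0746), Csnk1g3 at 0.56 ± 0.48, Csnk1g2 at 0.44 ± 0.36, Csnk1e at 0.04 ± 0.61 and Csnk1g1 at -0.06 ± 0.38.

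Of 12 genes of the destruction complex and of beta-catenin turnover, 4 rose and 0 fell at day 7, against 14.6% and 13% of all units, and 1 of the 4, Siah1a, stayed past the threshold with day 0 turned. Siah1a, of a ubiquitin ligase, stood at 0.75, 0.64 and 1.20 at day 7, against -0.18, -0.13 and 0.04 at day 0, and rose by 0.96 ± 0.20 (limma, adjusted p = 0.00195). Tnks2, a tankyrase that marks Axin for breakdown, stood at 0.91, 0.33 and 1.54, against -0.32, -0.38 and -0.24, and rose by 1.24 ± 0.30 (limma, adjusted p = 0.00478). Cul1 and Skp1, parts of the ligase that tags beta-catenin, rose by 0.95 ± 0.31 and 0.74 ± 0.25. Groups did not overlap for any of these 4 genes, which were picked as called, and the share of all units without overlap was not counted. The scaffold and kinase genes themselves did not pass, with Apc at 0.14 ± 0.31, Axin1 at -0.38 ± 0.28 and Gsk3b at -0.52 ± 0.28.

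Of 17 nuclear partners, 1 fell at day 1, the co-repressor gene Tle4 by 1.05, against 5.92% of all units. At day 7, against 14.6% and 13% of all units, 2 rose and 1 fell. These were Tbl1xr1, a co-regulator that binds beta-catenin, at 1.18 ± 0.29, the histone deacetylase gene Hdac1 at 1.03 ± 0.34, and Ruvbl2, a helicase-like ATPase, at -1.97 ± 0.69. Ruvbl2 stood at -1.23, -0.70 and -3.04 on arrays A, B and C of day 7, against -0.07, 0.46 and 0.55 at day 0, so that array C carried much of its fall. Tcf7l1 and Tcf7l2, the Tcf factors measured, stood at -0.03 ± 0.51 and -0.41 ± 0.29 at day 7 and did not pass.

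Of 9 genes listed as targets of the pathway, 2 rose at day 1, against 4.99% of all units. At day 7, 1 rose and 1 fell, against 14.6% and 13% of all units. Glul, the glutamine synthetase gene of hepatocytes around the central vein, stood at 1.22, 0.87 and 1.03 at day 1, against -0.06, -0.43 and -0.22 at day 0, and rose by 1.28 ± 0.32 (limma, adjusted p = 0.0149). At day 7 it was at 0.79, 1.34 and 0.49 and had risen by 1.11 ± 0.32 (limma, adjusted p = 0.015). Tcf4, which despite its symbol encodes an E protein and not a Tcf factor of the pathway, rose by 1.46 ± 0.33 at day 1 and stood at 0.56 ± 0.33 at day 7. Birc5, the gene of survivin, stood at -1.29, -1.01 and -2.19 at day 7, against -0.27, 0.02 and -0.06 at day 0, and fell by 1.39 ± 0.29 (limma, adjusted p = 0.00165). Myc (-0.90 ± 0.38), Jun (-0.84 ± 0.67), Cd44 (-0.23 ± 0.57), Met (-0.17 ± 0.56), Id2 (-0.17 ± 0.59) and Ppard (0.45 ± 0.36) did not pass at day 7. Of 14 genes of the branches that do not use beta-catenin, Daam2 fell by 1.48 at day 1, and Ppp3ca, of calcineurin, and Mapk9, of a Jun kinase, rose by 1.83 ± 0.47 and 0.68 ± 0.25 at day 7. The shares of all units were 5.92% called lower at day 1 and 14.6% called higher at day 7.

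**Figure D4:**
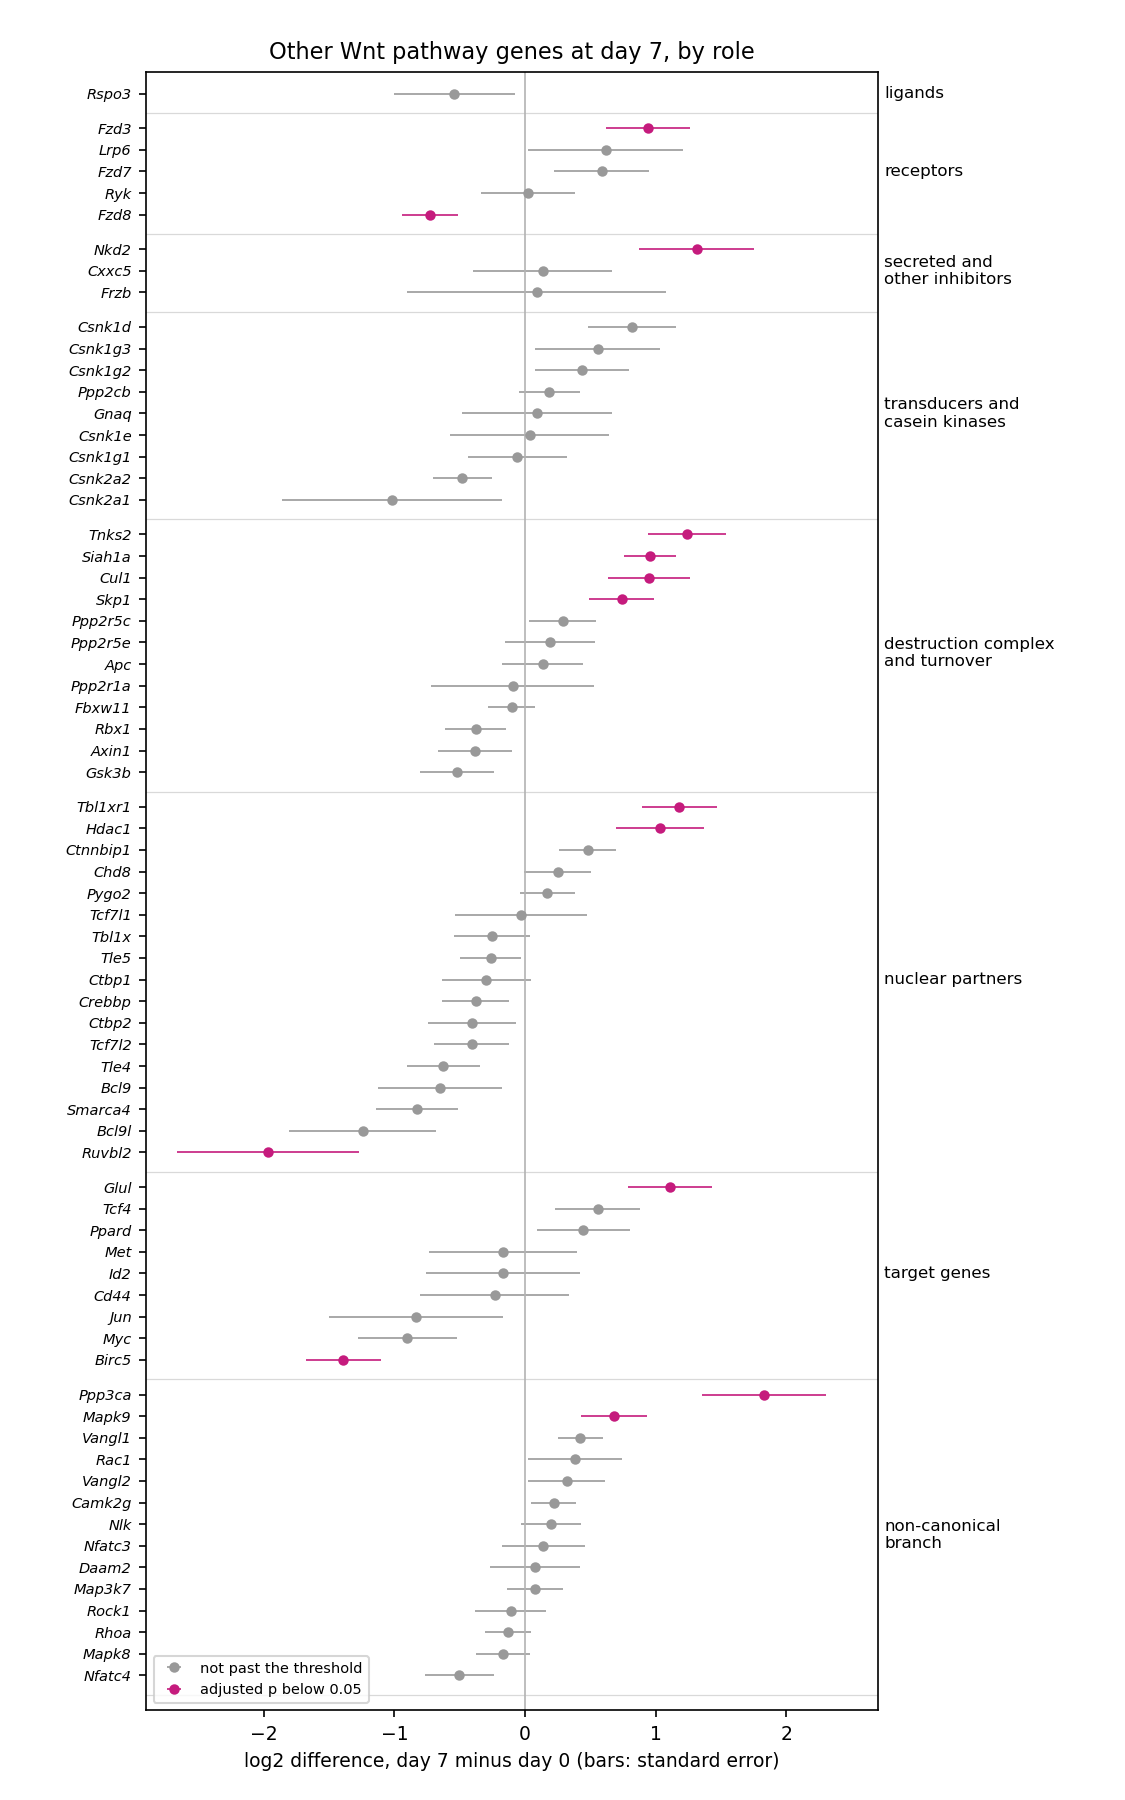
Difference of day 7 minus day 0 (horizontal axis, log2) for the 70 other Wnt pathway genes tested, grouped by role, with standard errors as bars and genes past an adjusted p of 0.05 in colour. The 11 genes that rose lie between 0.68 and 1.83, and the 3 that fell between -0.73 and -1.97.

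Beta-catenin also works at cadherin junctions, and the other genes of that setting were counted in the same way. Of 24 genes listed, 15 were tested, and at day 1 0 rose and 5 fell, against 4.99% and 5.92% of all units. Their median was -0.67, against 0.04 for all units. Those that fell were Zyx (by 3.41 ± 0.70) and Vcl (by 1.41 ± 0.45), which encode the linker proteins zyxin and vinculin, the actinin gene Actn1 (by 2.38 ± 0.73), the phosphatase gene Ptprf (by 1.53 ± 0.40) and Afdn (by 1.25 ± 0.33), of the nectin partner afadin. At day 7, 0 rose and 4 fell, against 14.6% and 13% of all units, with a median of -0.44. Of these calls, with day 0 turned, 1 of the 5 genes of day 1 (Vcl) and 2 of the 4 of day 7 (Vcl and Zyx) stayed past the threshold, at list medians of -0.50 and -0.15. Without turning, Zyx stood at -2.70, -3.32 and -4.93 at day 7, against 0.79, 1.14 and 0.26 at day 0. The genes of alpha-catenin and N-cadherin, which bind beta-catenin, did not pass at either day. Ctnna1 stood at -1.11 ± 0.40 at day 1 (limma, adjusted p = 0.0795) and -0.14 ± 0.40 at day 7, and Cdh2 at 0.29 ± 0.40 and 0.52 ± 0.40. The other cadherin and catenin genes tested did not pass either. Cdh5 stood at 0.08 ± 0.39 at day 1 and 0.12 ± 0.39 at day 7, and Ctnnd1 at -0.44 ± 0.34 at both days. On days 5 and 6 minus days 2 and 3, 0 of 15 passed by limma, and 2 had an unadjusted p under 0.05.

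Markers of fibroblasts, the cells of the removed feeder layer, were in part higher than at day 0. Of 18 listed, 10 were tested, and 3 rose and 0 fell at day 1 (Pdgfrb, Col6a1 and Col5a1), against 4.99% and 5.92% of all units, as did 3 and 0 at day 7 (Dcn, Pdgfrb and Prrx1), against 14.6% and 13%. Once day 0 was turned, 2 of the 3 stayed past the threshold at day 1 (Col6a1 and Pdgfrb) and 0 of the 3 at day 7, where 0 members were then higher and 2 lower by limma. Col5a1, Col5a2 and Col6a2 stood at -0.17, -0.71 and -0.52 at day 7, without passing, and are named after their values were seen. The list's mean log ratio per array was taken over the members with a value on that array. This mean was between 0.28 and 1.20 at days 1 to 3 and between -0.06 and 0.98 at days 4 to 7, against -0.84 to 0.11 at day 0. Day 0 arrays A and B, which held the lowest Fzd1 values, also held the lowest means of this list. Array C had the highest Fzd1 value at each of days 4 to 7. Its mean of the list was the highest of the day at day 5 (0.69) and day 6 (0.98). That mean lay between those of arrays A and B at day 4 (0.77) and was the lowest at day 7 (0.37). The part of fibroblast RNA in the Fzd1 and Ctnnb1 differences was not tested. Of 10 bile duct markers only Anxa4 was tested, and it rose at day 7, also with day 0 turned.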

How the data were processed

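Transcript levels were measured on 24 arrays of 2 colours, 3 for each of days 0 to 7. The authors deposited log ratios, read as log2 with Cy5 over Cy3. The base, numerator, scanner, background correction and normalization were each not given in the sources used here. Per the labels, Cy3 held undifferentiated cells on every array. Column medians were between -0.0253 and 0.0295.

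Of 24157 features, 13319 had 1 gene symbol, 589 had several and 10249 were not listed. Symbols were updated through Entrez identifiers (GRCm38.p6 table), which matched 13290, and 29 kept the old symbol. Arrays were centred on their median, and features of a gene were averaged. Units with at least 2 values in each day were tested, 10639 of 19153, of which 5660 were genes. The fit of day means used limma 3.58.1 (lmFit and eBayes, R 4.3.3, all 24 arrays, 2-sided), with Benjamini-Hochberg adjustment over all units and a threshold of 0.05. The permutation tests used scipy 1.17.1.

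The genes, the lists and the comparisons were chosen with earlier results of these data known. Genes named were the 3 genes, tested genes of the Wnt and junction lists, marker genes, and the 5 genes most correlated with each of the 3 (values shared on at least 20 arrays). The plan allowed up to 4 called marker genes a list. More were named for fibroblasts, and some of the marker genes named were not called. Data were simulated for days 5 and 6 minus days 2 and 3 with 10639 units, 200 of them changed. On these the fit recovered 61% of changes of 1 (log2) and 98% of changes of 2, with 11 false calls (6.47%). The simulated noise was independent between arrays, without the likeness of the late C arrays, so these rates may not hold for the real arrays.

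Alternatives were scaled arrays, a replicate block, only the compared days, stricter and looser filters on missing values, the sign of the day 0 arrays turned, the reference channel in place of day 0, days 5 to 7 against days 1 to 3, the C arrays of days 4 to 7 left out, and each array left out.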

Additional observations from a re-analysis of the deposited data

How the results depend on the processing

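With arrays scaled to 1 spread, the differences at day 1 minus day 0 were 4.29 for Fzd1, 1.48 for Ctnnb1 and 1.06 for Csnk1a1. With day 0 turned they were 1.68, 0.071 and -0.072 at day 1, and 1.90, 0.97 and -0.017 at day 7, so that Csnk1a1 changed sign. Against the reference channel they were 2.41, 0.53 and 0.33 at day 1, and Csnk1a1 stood at 0.39 at day 7. The other Wnt genes called at day 1, 4 in the report, numbered 13 with only the compared days, 18 with scaling and 11 when the late C arrays (days 4 to 7) were left out. Leaving out 1 array gave 1 to 5, with 2 without day 0 array B and 1 without day 1 array A or C. At day 7, with 14 in the report, they numbered 7 with only the compared days and 5 with the day 0 sign turned. Leaving out 1 array gave 5 to 16, with 6 and 5 without day 0 arrays A and B and 8 without day 7 array A. On days 5 and 6 minus days 2 and 3, Fzd1 was at -0.87 ± 0.28 with scaling (limma, adjusted p = 0.136), against -0.10 in the report. Without the late C arrays it was at -0.68. It was at 0.006 with days 5 to 7 against days 1 to 3. With 1 array left out it was between -0.49 and 0.25, being above 0 without day 5 array A (0.25) or day 6 array B (0.03). The Wnt genes called were 1 with at least 1 value in each day and 3 with days 5 to 7 against days 1 to 3, and 0 to 1 with 1 array left out (1 without day 6 array B). All units called, 44 in the report, numbered 0 with only the compared days, 111 with scaling, 144 without the late C arrays, 0 with only the compared days and no late C arrays (an alternative chosen after seeing the data, as were the junction and marker counts with day 0 turned) and 823 with days 5 to 7 against days 1 to 3. Leaving out 1 array gave 0 to 103: 0 without day 2 array A, B or C or day 3 array A or C, 11 without day 3 array B, 9 without day 5 array C, 26 without day 6 array C and 103 without day 6 array A. For Ctnnb1 and Csnk1a1 none of the 23 alternatives changed the sign, and none of the 22 with a test changed the side of the threshold. The comparison of days 5 to 7 with days 1 to 3 uses days that chose the 3 genes and gives them a value only. All units called against day 0 numbered 1161 at day 1 and 2940 at day 7 in the report, 515 and 1230 with day 0 turned, and 2577 and 1607 with only the compared days. The cause of these changes was not tested.

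Replicate letters did not meet the rule for pairing, which asks for every same-letter pair over 0.1. Deviations from the day mean correlated between arrays of the same letter at -0.30 to 0.55 over days 2, 3, 5 and 6, with a median of 0.167 and 12 of 18 pairs over 0.1. Arrays of different letters had a median of -0.091, with 9 of 36 pairs over 0.1, so same-letter arrays were somewhat closer, but not in every pair. With the replicate block, 182 units were called in place of 44.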
